A study of Rattus norvegicus with 9 samples.

Results

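Kidneys of rats given 50 mg/kg of colistin methanesulfonate sodium were compared with kidneys of rats given 25 mg/kg, which sets necrotic kidneys against mildly altered ones. The comparison holds 6 of the 9 arrays in the series and 20826 of its 31099 probe sets, those annotated to exactly 1 gene. These probe sets stood for 14217 genes, and 10337 of them reached the intensity minimum, a mean log2 value of 5, and were tested. The 3880 dimmer genes were not tested. This mean was taken over all 9 arrays, CMS50 included, so a gene could pass only through the group where it was high. Counts of tested members that rose can therefore be too high in lists with many dim members. All rats were Sprague-Dawley, an outbred stock, bought at 8 weeks of age and kept for 1 week before dosing. They were injected into the peritoneum once a day for 7 days with the drug in saline, or with saline alone. The groups are named CMS50 (50 mg/kg), CMS25 (25 mg/kg) and vehicle (saline) here, with 3 rats and 3 arrays each. The labels give 1 outcome per dose, not per rat: necrotic cells, degenerate or dilated tubules and eosinophilic casts at CMS50, basophilic and dilated tubules at CMS25, and no lesion in vehicle kidneys. RNA came from the whole right kidney and was hybridised to Affymetrix rat arrays, so every value is an average over all cell types, and fewer cells of a type cannot be told apart from less RNA per cell. Animals are the replicates, and their number limits the precision.

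Colistin is a polymyxin antibiotic, and colistin methanesulfonate is the prodrug in which it is given. It is filtered by the glomerulus and taken up by proximal tubule cells, partly through the endocytic receptor megalin and peptide transporters, and its best known adverse effect is injury of these cells. Injured tubule cells lose transport and metabolic genes, switch on secreted injury markers and can divide to replace lost neighbours, while macrophages and matrix-producing cells of the interstitium often increase.

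The arrays within a dose were not equally far along. On the first principal component of all tested genes, which held 65.4% of the variance, CMS50 replicates 1 and 2 lay at 41.8 and 46.2 and replicate 3 at 17.9, against -12.2 to -24.3 for the other 6 arrays. For genes chosen with at least a 2-fold change in a fit without it, CMS50 replicate 3 showed a median of 0.565 of the change of the other CMS50 arrays (810 genes), against 1.08 for replicate 1 and 1.28 for replicate 2. Correlations between CMS50 and CMS25 arrays ran from 0.916 to 0.974, and those within CMS25 from 0.980 to 0.981. As a reading of RNA quality, the log2 difference between the 3′ and 5′ control probe sets of beta-actin was 3.58 ± 0.0854 (SD, n = 3) in CMS50 and 3.17 ± 0.120 in CMS25, with no overlap (exact permutation test, two-sided p = 0.1, the smallest that 3 against 3 allows). The same reading for GAPDH was 0.816 ± 0.0622 and 0.698 ± 0.209, with overlap (exact p = 0.5). The part of RNA quality in the results below was not tested. Liver genes stood out on vehicle replicate 1, where Alb, which encodes albumin, read 10.48 against 3.69 to 5.29 on the other 8 arrays. Fat cell genes stood out on CMS25 replicate 1, where Plin1 read 6.52 against 3.29 to 3.56 elsewhere. The labels give no sex, but the Y-linked gene Eif2s3y read 8.96 to 9.61 on all 9 arrays and Xist at most 3.15.

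Between the doses, injury, macrophage, matrix and mitosis genes rose, and part of the transport and metabolic genes fell. In CMS50 against CMS25 kidneys, 3128 of the 10337 genes passed limma's test at an adjusted p under 0.05, which is 30.3%. Of these, 2153 (20.8%) were higher in CMS50 and 975 (9.43%) were lower, and these are the genes that "rose" and "fell" in what follows. The 20.8% is the background for every count of rises below, and the 9.43% for every count of falls. A change of at least 2-fold held for 562 genes (5.44%), 372 higher (3.6%) and 190 lower (1.84%). CMS50 and CMS25 arrays did not overlap for 4723 genes (45.7%), higher in CMS50 for 3138 (30.4%) and lower for 1585 (15.3%). The median log2 difference of all genes was 0.0744 and the median standard error (SE) 0.1191. The share of higher genes among those called was 68.8% in the deposited scaling, 58.7% after cyclic loess and 52.1% after centring each array on its median, so the excess of rises depends on the scaling while the named changes below did not reverse under either. Leaving out 1 array gave between 1569 genes (without CMS50 replicate 2) and 3518 (without CMS50 replicate 3). Leaving out CMS50 replicate 1 gave 1737 and CMS25 replicate 3 gave 2008.

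**Figure D1:**
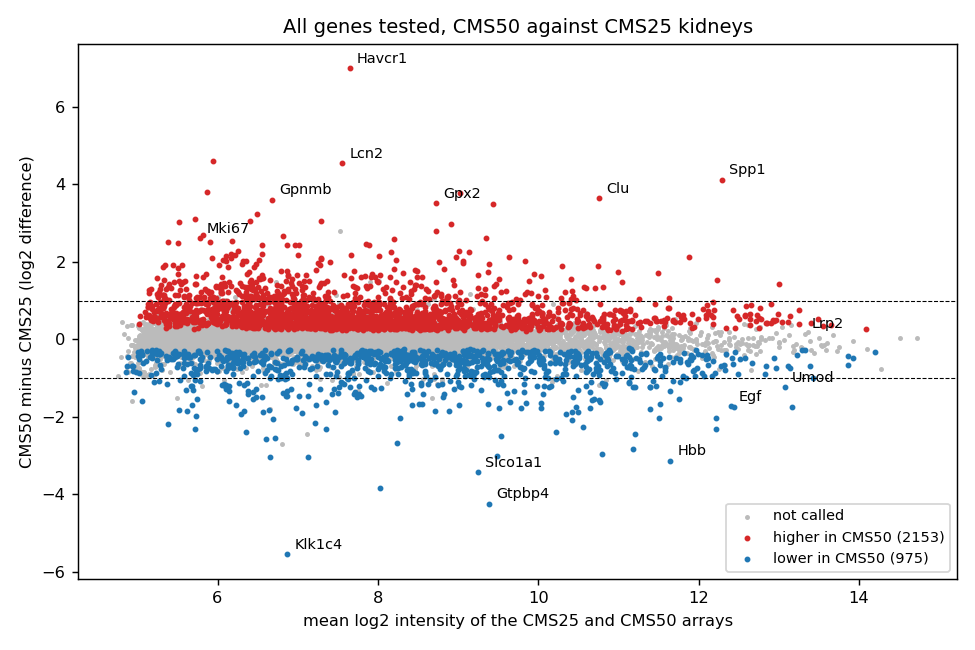
Mean log2 intensity of the 6 arrays (x axis) against the log2 difference of CMS50 minus CMS25 (y axis) for all 10337 genes tested. Red points are the 2153 genes higher in CMS50, blue points the 975 lower ones, grey points the rest, and dashed lines mark a 2-fold change; Havcr1 lies highest and Klk1c4 lowest.

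Genes of injured tubules were among the largest rises. Havcr1, which encodes kidney injury molecule 1 of damaged proximal tubules, read 4.20, 4.38 and 3.87 on CMS25 replicates 1 to 3 and 11.66, 11.60 and 10.18 on CMS50 replicates 1 to 3. All CMS25 readings were below the intensity minimum of 5, vehicle kidneys read 3.96 to 5.58, and every CMS50 array lay far above both groups. With means of 4.83 in vehicle and 4.15 in CMS25, Havcr1 passed the intensity minimum only through CMS50. The log2 difference was 7.00 (SE 0.46, adjusted p = 0.000261), about 128-fold, where a fold against so dim a group is approximate. Lcn2, which encodes the iron-carrier-binding protein NGAL, read 5.60, 4.95 and 5.30 in CMS25 and 9.88, 10.51 and 9.10 in CMS50, a log2 difference of 4.55 (SE 0.43, adjusted p = 0.000912). Spp1 (osteopontin, a matrix and urine protein) read 11.38, 9.25 and 10.06 in CMS25 and 14.35, 14.49 and 14.20 in CMS50, among the brightest signals on these arrays. Its CMS25 arrays spread over 2 log2 units and its CMS50 arrays over less than 1, and the log2 difference was 4.12 (SE 0.57, adjusted p = 0.00249). Clu (clusterin, a secreted chaperone) rose by a log2 difference of 3.65 (SE 0.44) and by 2.06 when its probe sets were averaged.

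In the list of 31 tested tubular injury markers, 22 rose and 1 fell, with a median log2 difference of 1.49 beside 0.0744 for all genes. The members that rose included Fgb (a fibrinogen chain, 3.81), Timp1 (an inhibitor of matrix proteases, 3.04), the intermediate filament genes Vim (2.12) and Krt8 (1.22). Fgb read 6.98 on vehicle replicate 1, the array with high liver genes, above its 6.68 on CMS50 replicate 3. Tff3, a trefoil peptide of the distal nephron named here after its value was seen, was the member that fell, by 1.75 on the log2 scale. Its readings were 13.04, 13.10 and 13.81 in CMS25 and 11.24, 10.73 and 12.72 in CMS50. Not all classic markers moved: Cst3 (cystatin C) and B2m (beta-2-microglobulin), proteins measured in blood or urine as signs of filtration and tubule function, had log2 differences of 0.23 (adjusted p = 0.205) and 0.32 (adjusted p = 0.158). Without any 1 array, 20 to 23 of the 31 markers rose.

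Other genes among the 15 largest rises encode secreted or stress-linked proteins. Serpina3n, a protease inhibitor of the acute phase, varied widely between rats, with 3.40, 4.01 and 3.52 in CMS25 and 6.06, 10.50 and 8.17 in CMS50 (log2 difference 4.60, SE 1.02, adjusted p = 0.0113). Its vehicle kidneys read 4.99, 6.48 and 3.55, so vehicle replicate 2 lay above CMS50 replicate 1. Gpx2, a glutathione peroxidase known from gut epithelium, was tight at 6.92, 7.08 and 6.89 in CMS25 and 10.85, 10.77 and 9.83 in CMS50 (log2 difference 3.52, SE 0.23, adjusted p = 0.000261). Adamts1, a secreted metalloprotease, rose by 3.49 (SE 0.28), Serpina10, an inhibitor of clotting factors, by 3.24 (SE 0.38) and Akr1b8, an aldo-keto reductase, by 3.11 (SE 0.23). Serpina10 had means of 4.90 in vehicle and 4.87 in CMS25, and Akr1b8 of 3.99 and 4.17. Both passed the intensity minimum only through CMS50. Ubd, a ubiquitin-like modifier induced by interferon gamma and tumour necrosis factor, read 6.83, 8.01 and 6.56 in CMS25 and 11.67, 9.64 and 11.46 in CMS50, a log2 difference of 3.79 (SE 0.87, adjusted p = 0.0129). The call for Ubd was lost without CMS50 replicate 1 (adjusted p = 0.0517).

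**Figure D2:**
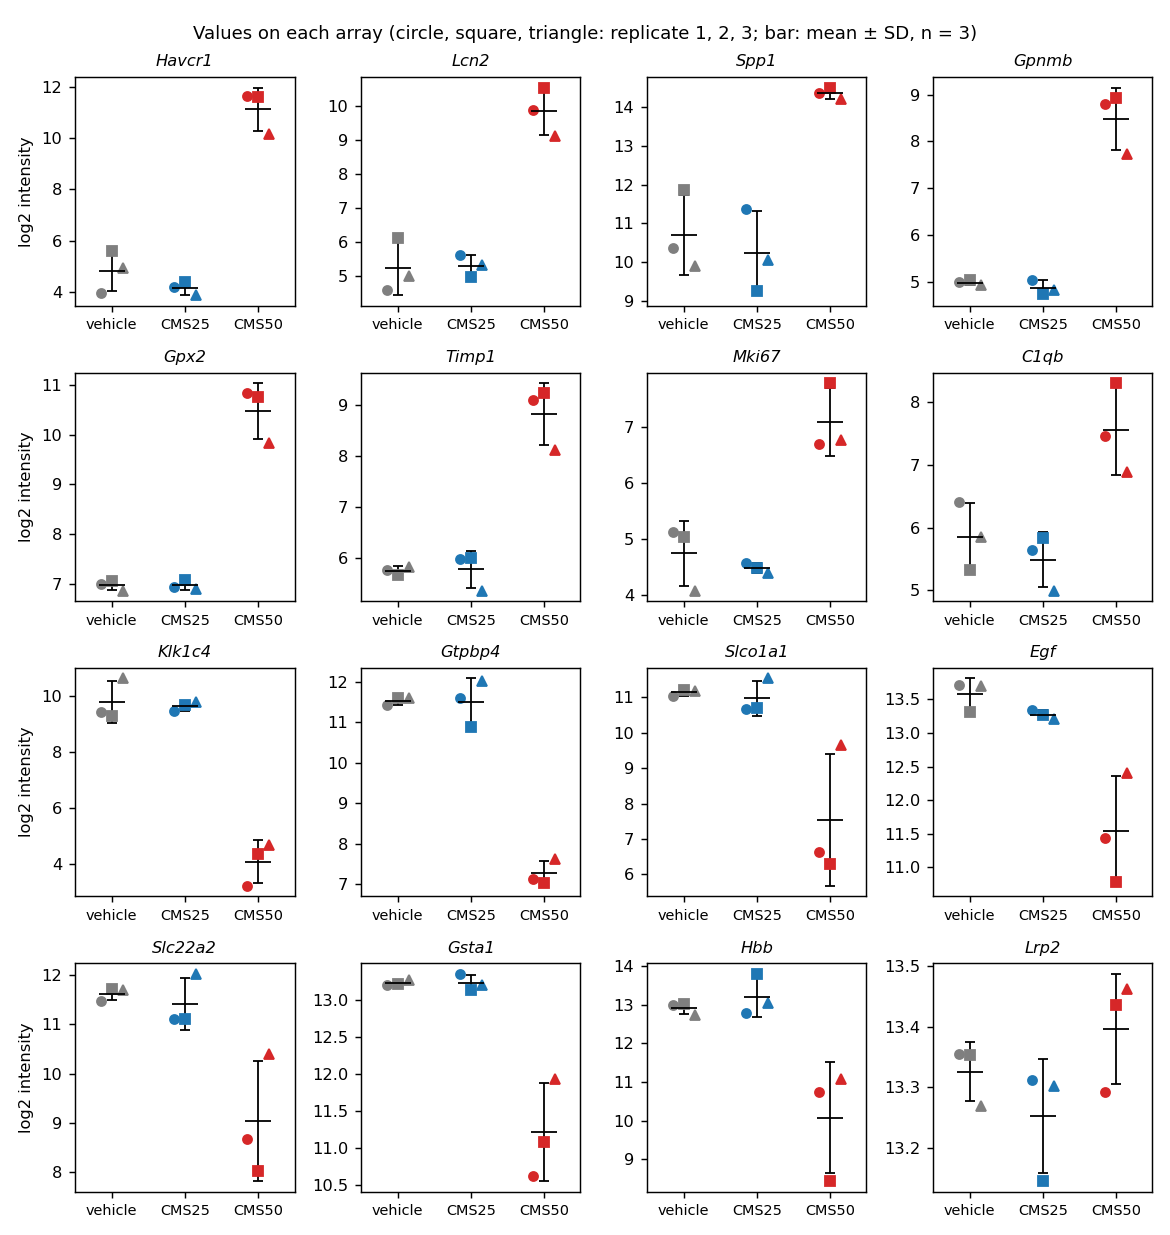
Log2 intensity (y axis) of 16 genes on each array of the 3 groups (x axis); circle, square and triangle are replicates 1, 2 and 3 and bars show the mean ± SD of 3 arrays. For Havcr1, Lcn2, Gpnmb and Gpx2 all CMS50 arrays lie above all other arrays, for Klk1c4 and Gtpbp4 all lie below, CMS50 replicate 3 lies nearer to CMS25 for Slco1a1 and Slc22a2, and Lrp2 overlaps between groups.

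The largest fall was that of Klk1c4, a member of the tissue kallikrein family of secreted serine proteases. It read 9.46, 9.69 and 9.79 in CMS25 and 3.23, 4.38 and 4.67 in CMS50, where the signal was below the intensity minimum on every array. The log2 difference was -5.55 (SE 0.41, adjusted p = 0.000397), and CMS25 lay within the range of vehicle kidneys (9.27 to 10.63). Klk1 and Klk1b3, relatives that are made in the connecting tubule or other glandular cells, fell by 2.97 (SE 0.41) and 2.82 (SE 0.38) on the log2 scale. Kallikrein genes are near-identical copies, so their probe sets may share signal and their values are uncertain as separate genes. Gtpbp4, a nucleolar GTPase needed to build the large ribosomal subunit, read 11.60, 10.88 and 12.03 in CMS25 and 7.13, 7.03 and 7.61 in CMS50. All CMS50 arrays, including replicate 3, lay more than 3 log2 units below every other array, and the log2 difference was -4.24 (SE 0.26, adjusted p = 0.000261). A further probe set of Gtpbp4 had a log2 difference of -3.64.

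The other large falls included transporters, plasma proteins and enzymes. Slco1a1, an organic anion transporter of the proximal tubule, read 10.68, 10.69 and 11.53 in CMS25 and 6.63, 6.29 and 9.66 in CMS50, where replicate 3 had the mildest loss (log2 difference -3.44, SE 0.73, adjusted p = 0.00986). Cyp2c11, a cytochrome P450 best known as a male liver enzyme, read 4.52 and 4.71 on CMS50 replicates 1 and 2 and 9.11 on replicate 3, beside 9.31 to 10.97 in CMS25. Its call (log2 difference -3.82, SE 1.07, adjusted p = 0.0269) was lost without any 1 of the CMS25 arrays or without CMS50 replicate 1 or 2, with adjusted p up to 0.0964. Slc7a12, an amino acid transporter, fell by 3.01 on the log2 scale (SE 0.74, adjusted p = 0.0164), a call lost without CMS25 replicate 3, CMS50 replicate 1 or CMS50 replicate 2 (adjusted p up to 0.0578). Poteml2 fell by 3.03 (SE 0.83), lost in 5 of the 9 fits that leave out an array, each without a CMS25 array or CMS50 replicate 1 or 2. Tnfrsf11b, which encodes the decoy receptor osteoprotegerin, fell by 3.03 (SE 0.45). Gc (vitamin D-binding protein), Ces1e (a carboxylesterase) and Hrg (histidine-rich glycoprotein) fell by 2.68, 2.55 and 2.38. Rgn (regucalcin, a calcium-binding protein) fell by 2.44, a call lost without CMS25 replicate 3 or CMS50 replicate 1 (adjusted p up to 0.0648).

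Markers of nephron segments did not fall alike. In segment S3, the straight end of the proximal tubule, 9 of 17 tested markers fell and 1 rose, with a median log2 difference of -0.82. In segments S1 and S2, where most filtered solute is reabsorbed, 9 of 33 fell and 5 rose, with a median of -0.18. Beside Slco1a1 and Slc7a12, S3 members that fell were Slc7a13, a cystine and glutamate transporter (-1.73, SE 0.40), and Slco1a6 (-1.88, SE 0.48). The call for Slc7a13 was lost without CMS50 replicate 1 (adjusted p = 0.0517), and that for Slco1a6 without CMS25 replicate 3, CMS50 replicate 1 or CMS50 replicate 2. Without CMS50 replicate 1, 4 of the 17 S3 markers fell and, without replicate 1 or 2, 4 of the 33 S1 and S2 markers. The difference between the segment lists was not tested.

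Within S1 and S2, single transporters went opposite ways. Slc22a2, the basolateral organic cation transporter, read 11.10, 11.12 and 12.03 in CMS25 and 8.67, 8.03 and 10.40 in CMS50 (log2 difference -2.38, SE 0.51, adjusted p = 0.0103). Slc22a6, the basolateral organic anion transporter, fell by 1.50 (SE 0.26). Slc2a2, the basolateral glucose transporter, read 8.97, 8.88 and 8.61 in CMS25 and 11.16, 11.14 and 10.26 in CMS50, a rise of 2.03 (SE 0.27, adjusted p = 0.00235). Slc7a9, the light chain of the cystine transporter, rose by 1.06 (SE 0.16). Slc34a1, the main phosphate transporter of the brush border, read 13.89, 13.90 and 13.75 in CMS25 and 13.61, 13.45 and 13.92 in CMS50, with overlapping groups (log2 difference -0.18, SE 0.13, adjusted p = 0.284).

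The route of colistin into tubule cells was covered by 7 tested genes of 9 listed, of which 2 rose and 3 fell. Lrp2, which encodes megalin, read 13.31, 13.14 and 13.30 in CMS25 and 13.29, 13.44 and 13.46 in CMS50, a log2 difference of 0.14 (SE 0.09, adjusted p = 0.230). Cubn, which encodes its partner cubilin, read 11.48, 10.95 and 11.26 in CMS25 and 12.24, 12.09 and 11.77 in CMS50, higher on every CMS50 array (0.80, SE 0.16, adjusted p = 0.00821). Amn, which anchors cubilin in the membrane, rose by 0.53 (SE 0.16, adjusted p = 0.0380), a call lost in 10 alternatives, among them centring on the median and leaving out vehicle replicate 1 or any CMS25 or CMS50 array. Of the peptide transporters, Slc15a2 read 11.49, 11.23 and 12.17 in CMS25 and 10.67, 10.94 and 11.52 in CMS50, with overlap (-0.59, SE 0.28, adjusted p = 0.138), and the dimmer Slc15a1 fell by 1.32 (SE 0.37, adjusted p = 0.0273). The carnitine and cation transporters Slc22a4 and Slc22a5 fell by 0.48 (SE 0.14) and 0.44 (SE 0.11). The calls for Slc15a1 and Slc22a5 were lost without CMS25 replicate 1 or 2 or CMS50 replicate 1 or 2, and 4 alternatives also ended that for Slc22a4. No gene of this list fell without CMS25 replicate 2, CMS50 replicate 1 or CMS50 replicate 2.

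Markers also fell beyond the proximal tubule. Of 16 tested markers of the thin and thick ascending limb, 8 fell and 1 rose, with a median log2 difference of -0.65. Egf, made in this segment and lost from urine in kidney disease, read 13.34, 13.27 and 13.21 in CMS25 and 11.44, 10.78 and 12.40 in CMS50 (log2 difference -1.73, SE 0.33, adjusted p = 0.00638). Ppp1r1a, a phosphatase inhibitor, fell by 1.92 (SE 0.40) and Kcnj1, the potassium channel ROMK, by 1.24 (SE 0.23). Umod, which encodes uromodulin, the most abundant protein of normal urine, read 13.66, 13.65 and 13.76 in CMS25 and 12.64, 11.34 and 13.38 in CMS50. Its arrays did not overlap, but its call (-1.24, SE 0.40, adjusted p = 0.0445) was lost in 11 alternatives, leaving out any array but CMS50 replicate 3 among them, and without CMS50 replicate 2 its log2 difference was -0.68. Slc12a1, the sodium, potassium and chloride cotransporter of this segment, did not pass (-0.66, SE 0.26, adjusted p = 0.0808). The count of falls in the list was 5 without CMS50 replicate 1 or 2.

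In the distal convoluted and connecting tubule 5 of 11 tested markers fell, with none that rose and a median of -0.47. The fallen members were Klk1, S100g (a calcium-binding protein, -1.88), Kl (klotho, the coreceptor of a phosphate hormone, -0.94), Fxyd2 (a sodium pump subunit, -0.55) and Emx1 (-0.53). Slc12a3, the thiazide-sensitive cotransporter that defines the segment, had a log2 difference of 0.0023 (adjusted p = 0.997). Leaving out CMS25 replicate 2, CMS50 replicate 1 or CMS50 replicate 2 left 2 falls. In principal cells of the collecting duct 3 of 15 fell, and Aqp2, their water channel, overlapped between groups with 10.60, 11.73 and 10.86 in CMS25 and 10.79, 10.05 and 10.84 in CMS50 (-0.50, SE 0.30, adjusted p = 0.232). Fxyd4, a sodium pump regulator, fell by 1.04 (SE 0.22). St6gal1 and Avpr2 fell by 0.81 and 0.46, calls lost in 10 and 15 alternatives. All 10 tested intercalated cell genes had lower means in CMS50 (median -0.68), but only 2 fell: the anion exchanger Slc4a1 by 1.70 (SE 0.28) and the proton pump subunit Atp6v1g3 by 1.02 (SE 0.34), the latter lost in 12 alternatives and at -0.58 without CMS25 replicate 2. Counts for these small lists moved with single arrays: 1 to 4 principal cell genes and 1 to 6 intercalated cell genes fell when an array was left out, the most without CMS50 replicate 3.

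**Figure D3:**
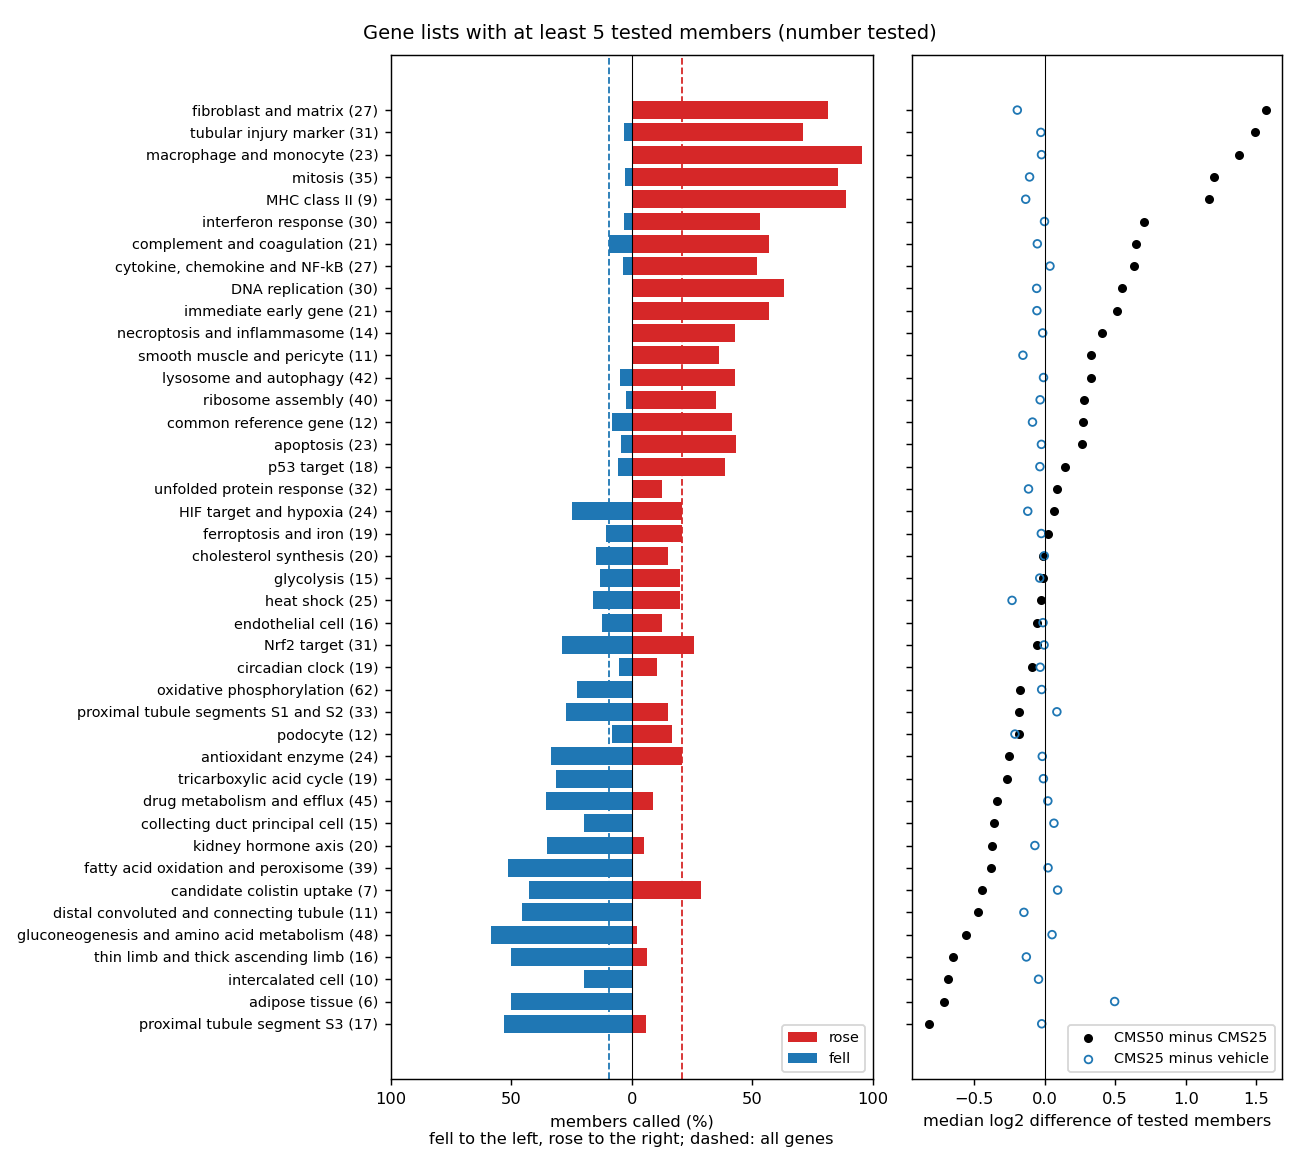
Left, the percentage of tested members of each gene list with at least 5 tested members (y axis, number tested in brackets) that fell (blue, to the left) or rose (red, to the right) in CMS50 against CMS25, with dashed lines at 9.43% and 20.8% for all genes; right, the median log2 difference of CMS50 minus CMS25 (filled) and CMS25 minus vehicle (open). Of these lists, fibroblast and matrix genes have the highest filled median at 1.56 and S3 genes the lowest at -0.82, while most open medians lie near 0; both differences share the CMS25 arrays.

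In 3 lists of energy metabolism some genes fell and none rose. In the fatty acid list 3 of the falls reached 2-fold, while none did in oxidative phosphorylation or the tricarboxylic acid cycle. The proximal tubule burns fatty acids, and 20 of 39 tested genes of fatty acid oxidation and peroxisomes fell while none rose, with a median log2 difference of -0.38. Hacl1, which shortens branched fatty acids in peroxisomes, read 9.77, 9.43 and 10.21 in CMS25 and 7.76, 7.73 and 8.39 in CMS50 (-1.84, SE 0.26, adjusted p = 0.00256). Ehhadh, the peroxisomal bifunctional enzyme, fell by 1.42 (SE 0.17), Amacr, a racemase of branched fatty acids, by 1.10 (SE 0.16) and Etfdh, which passes their electrons to the respiratory chain, by 0.92 (SE 0.14). Of 62 genes of oxidative phosphorylation, 14 fell and none rose (median -0.18), and 56 had lower means in CMS50. The largest of these falls were Sdhd (-0.60), Ndufv3 (-0.57), Sdhc (-0.51) and Sdha (-0.45), of which Sdhd, Sdhc and Sdha encode subunits of complex II. The call for Ndufv3 was lost when its probe sets were averaged (-0.22), and that for Sdha in 6 alternatives. In the tricarboxylic acid cycle 6 of 19 fell and none rose (median -0.27), among them Pdha1 of pyruvate dehydrogenase (-0.50, SE 0.11). These counts were sensitive: without CMS50 replicate 1 or 2 only 3 genes of oxidative phosphorylation and 1 of the cycle fell, and without replicate 3 there were 21 and 9. Centring on the median gave 26 and 11. Fatty acid genes that fell numbered 13 without CMS50 replicate 2.

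Making glucose and breaking down amino acids, also tasks of the proximal tubule, also mostly fell. Of 48 tested genes 28 fell and 1 rose, with a median log2 difference of -0.56. Acmsd, an enzyme of tryptophan breakdown, fell by 2.02 (SE 0.41), Gldc of the glycine cleavage system by 1.87 (SE 0.27), Bhmt, which remethylates homocysteine, by 1.42 (SE 0.31) and Arg2, the mitochondrial arginase, by 1.41 (SE 0.29). Pck1, the rate-limiting enzyme of gluconeogenesis, fell by 0.42 (adjusted p = 0.00860). The gene that rose, Hao1 (glycolate oxidase, named after its value was seen), read 4.33 to 4.69 in CMS25, below the intensity minimum, and 5.57 to 5.98 in CMS50. No gene of this list rose without vehicle replicate 2, CMS25 replicate 2 or 3 or any CMS50 array, or after centring on the median. Without CMS50 replicate 1, 16 of the 48 fell. Glycolysis genes were mixed, with 3 of 15 that rose, Ldha (lactate dehydrogenase) by 0.53 and Pfkp (a phosphofructokinase) by 0.47 among them, and 2 that fell, Pklr (a pyruvate kinase) by 0.82 and the glucose transporter Slc2a1 by 0.63. The calls for Pklr and Slc2a1 were lost without some arrays, CMS50 replicates 1 and 2 among them. Since 20.8% of all genes rose and 9.43% fell, the glycolysis counts are near that background.

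Drug-handling and antioxidant genes split, beside 20.8% of all genes that rose and 9.43% that fell. Antioxidant enzymes rose at about the first share and fell above the second. Among 45 genes of drug metabolism and efflux 16 fell and 4 rose (median -0.33), and 9 fell without CMS50 replicate 1. Gsta1, a glutathione transferase abundant in proximal tubules, read 13.35, 13.13 and 13.20 in CMS25 and 10.63, 11.07 and 11.93 in CMS50 (-2.02, SE 0.26, adjusted p = 0.00224). Gsta3 fell by 1.32 (SE 0.29), while Gstm1, of another class of the same enzymes, rose by 1.31 (SE 0.35), a call lost without CMS25 replicate 3 or CMS50 replicate 1 or 2. Ugt2b35, a glucuronosyltransferase, read 8.86, 10.53 and 12.09 in CMS50 against 12.37 to 12.66 in CMS25. Its call (-2.02, SE 0.62, adjusted p = 0.0380) was lost in 9 alternatives, those without any array but CMS50 replicate 3 among them, and without CMS50 replicate 1 its difference was -1.20. Targets of Nrf2, the transcription factor that answers oxidative stress, went both ways, with 8 of 31 that rose and 9 that fell. Gpx2 and Akr1b8 rose as above, while Me1, which makes NADPH, fell by 1.66 (SE 0.31). Akr1b8 was tested only through its CMS50 level, so its place among the rises follows in part from the intensity minimum. Nqo1 and Txnrd1, often used as readouts of this factor and named here for that, had log2 differences of -0.14 (adjusted p = 0.587) and -0.05 (adjusted p = 0.682). Hmox1, the inducible heme oxygenase, rose by 1.14 (SE 0.20). Among antioxidant enzymes 5 of 24 rose and 8 fell, with Sod3, the secreted superoxide dismutase, up by 1.32 (SE 0.20) and Msra, which repairs oxidised methionine, down to -1.32 (SE 0.21). Leaving out CMS50 replicate 1 gave 5 rises and 5 falls of Nrf2 targets and 3 and 3 of antioxidant enzymes, and centring on the median gave 13 antioxidant falls.

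Macrophage genes rose. Of 23 tested macrophage and monocyte markers 22 rose and none fell, with a median log2 difference of 1.38. The intensities of all genes of this list on the array, tested or not, were also summed. On the log2 scale this sum was 12.02 to 12.54 on CMS25 arrays, at most 12.35 on vehicle arrays and 13.48 to 14.25 on CMS50 arrays. The sum rests heavily on Lyz2, the brightest member, with means of 11.47 in CMS25 and 12.99 in CMS50. Gpnmb, a glycoprotein of lipid-laden macrophages and stressed tubules, read 5.05, 4.74 and 4.84 in CMS25 and 8.80, 8.94 and 7.72 in CMS50 (3.61, SE 0.27, adjusted p = 0.000397). Mrc1, the mannose receptor CD206, read 4.54, 3.90 and 3.56 in CMS25 and 7.13, 7.81 and 6.16 in CMS50 (3.03, SE 0.43, adjusted p = 0.00249). The complement gene C1qb rose by 2.06 (SE 0.38), the lectin receptor Clec4a3 by 1.98 (SE 0.30), and Cd68, a lysosomal protein of macrophages, by 1.11 (SE 0.25). Csf1r, the receptor for the macrophage growth factor, read 5.81 to 6.49 in CMS25 and 7.12 to 7.87 in CMS50. Between 19 and 22 of the 23 genes rose when an array was left out. The array held 29 genes of this list. Mrc1 and Gpnmb, with means under 5 in both vehicle and CMS25, passed the intensity minimum only through CMS50.

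Other blood cells gave a different picture. Of 9 neutrophil genes on the array only Lcn2, which injured tubules also make, reached the intensity minimum, and the neutrophil markers S100a8 and S100a9 read at most 3.12 and 4.68 on any array. The summed neutrophil level of 9.32 to 10.59 in CMS50 against 7.04 to 7.44 in CMS25 is thus largely a reading of Lcn2. Of 20 T and NK cell genes, 4 were tested and 2 rose: Cd3e, a T cell receptor chain, by 0.53 (SE 0.17, adjusted p = 0.0407), lost in 11 alternatives, and the kinase Lck by 0.45 (SE 0.13, adjusted p = 0.0308), lost in 6. With means of 4.83 in vehicle and 4.98 in CMS25, Cd3e passed the intensity minimum only through CMS50. The only B cell gene tested, Cd22, had a log2 difference of -0.10 (adjusted p = 0.543). Red blood cell genes fell, all 3 tested: Hbb (beta globin) read 12.79, 13.81 and 13.04 in CMS25 and 10.73, 8.42 and 11.08 in CMS50 (-3.14, SE 0.59, adjusted p = 0.00617). Alas2, which starts heme synthesis in red cells, fell by 1.53 (SE 0.36) and Slc25a37, the mitochondrial iron importer, by 0.46 (SE 0.12). The alpha globin gene Hba-a3, which is among the 15 largest falls but not on this list, fell by 2.50 (SE 0.46). Without CMS50 replicate 2, 1 of the 3 fell. The summed red cell level was 12.83 to 13.84 on CMS25 arrays, 12.77 to 13.05 on vehicle arrays and 8.83 to 11.17 on CMS50 arrays, and the part of residual blood in other results was not tested. Globin genes are near-identical copies, so their separate values are uncertain.

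Antigen presentation and innate signals rose with the macrophage genes, and how far the macrophage sum accounts for them was not tested. Of 9 MHC class II genes 8 rose (median 1.16), with RT1-Da up by 1.63 (SE 0.25), the invariant chain Cd74 by 1.35 (SE 0.23), RT1-Db1 by 1.25 (SE 0.19) and RT1-Bb by 1.75 (SE 0.45), the last lost without CMS25 replicate 3 or CMS50 replicate 2 and when probe sets were averaged. RT1 genes are a multigene family and their probe sets may share signal. Of 27 cytokine, chemokine and NF-kB genes 14 rose and 1 fell (median 0.64). Nfkbiz, a nuclear partner of NF-kB, rose by 2.43 (SE 0.25), the adhesion molecule Icam1 by 1.51 (SE 0.15), the monocyte attractant Ccl2 by 1.50 (SE 0.24) and the interleukin 1 receptor Il1r1 by 1.22 (SE 0.28). The interleukin 1 beta gene Il1b, named for contrast after its value was seen, had a log2 difference of 0.10 (adjusted p = 0.753).

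Of 30 genes of the interferon response 16 rose and 1 fell (median 0.70), and those that rose most were Ubd, Gbp2 (a guanylate-binding protein, 1.76, SE 0.22) and the immunoproteasome subunits Psmb8 (1.65, SE 0.20) and Psmb10 (1.50, SE 0.18). Not every member rose: Isg15, a ubiquitin-like protein induced by interferon and named with Mx1 after their values were seen, read 6.81, 7.29 and 6.43 in CMS25 and 6.87, 6.62 and 6.94 in CMS50 (-0.03, SE 0.21, adjusted p = 0.918), and Mx1, an antiviral GTPase, had 0.11 (adjusted p = 0.727). In complement and coagulation 12 of 21 rose and 2 fell (median 0.64). C3, the central complement protein, read 5.39, 5.59 and 5.47 in CMS25 and 8.28, 8.52 and 7.61 in CMS50 (2.66, SE 0.42, adjusted p = 0.00338), with 7.60 on vehicle replicate 1, the array with high liver genes. Cfi, the complement inhibitor factor I, rose by 3.04 (SE 0.57). With means of 4.65 in vehicle and 4.88 in CMS25, Cfi passed the intensity minimum only through CMS50. The members that fell, named after their values were seen, were the anticoagulants Proc (protein C, -1.12) and Tfpi (tissue factor pathway inhibitor, -0.51).

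Matrix genes of fibroblasts rose in 22 of 27 tested cases, with none that fell and the highest median of any list with at least 5 tested members, 1.56. Col3a1, a fibrillar collagen, read 8.62, 6.82 and 6.55 in CMS25 and 9.95, 11.10 and 9.33 in CMS50 (2.79, SE 0.56, adjusted p = 0.00787). Its CMS25 replicate 1 lay closer to CMS50 than the other CMS25 arrays did. Fn1 (fibronectin) showed the same spread, with 8.82, 7.55 and 7.65 in CMS25 and 10.07, 11.21 and 9.50 in CMS50 (2.25, SE 0.45). Timp1 read 5.97, 5.99 and 5.35 in CMS25 and 9.10, 9.23 and 8.11 in CMS50, and Ccn1, a matrix signal induced by growth factors and stretch, rose by 2.29 (SE 0.24). Between 15 (without CMS50 replicate 2) and 23 (without CMS50 replicate 3) of the 27 rose. In smooth muscle and pericytes 4 of 11 rose, Tagln (1.39), Pdgfrb (1.08), Mcam (0.61) and Des (0.56), but without CMS25 replicate 3 none did. Des had 0.33 without CMS50 replicate 2 and Pdgfrb had 0.50 when its probe sets were averaged, and both calls were lost. Acta2, the smooth muscle actin that marks myofibroblasts, overlapped between groups (0.21, adjusted p = 0.269).

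Glomerular and vessel genes were called about as often as all genes, of which 20.8% rose and 9.43% fell. Of 12 podocyte genes 2 rose and 1 fell (median -0.18): Myh9 (nonmuscle myosin, 1.01) and Cd2ap (an adaptor of the slit diaphragm, 0.65), both also made by other cells, rose, and the transcription factor Wt1 fell by 0.89 (SE 0.22), a call lost without CMS25 replicate 2 or CMS50 replicate 2. Nphs1, which encodes nephrin and defines the podocyte, read 7.06, 7.76 and 6.92 in CMS25 and 6.70, 6.32 and 7.01 in CMS50, with overlap (-0.57, SE 0.30, adjusted p = 0.166). Of 16 endothelial genes 2 rose and 2 fell (median -0.05). Igfbp3, a carrier of insulin-like growth factors, fell by 1.66 (SE 0.33) and Vwf by 1.17 (SE 0.36), while Ets1 and Ramp2 rose by 0.70 and 0.51. The calls for Vwf, Ets1 and Ramp2 were lost in 6, 8 and 4 alternatives (no endothelial gene rose without CMS25 replicate 3, CMS50 replicate 1 or CMS50 replicate 2), and 6 endothelial genes fell after centring on the median or without CMS25 replicate 3. Pecam1, the defining marker CD31, had a log2 difference of -0.02 (adjusted p = 0.944). Fat cell genes fell in 3 of 6 cases, Adipoq by 1.20, Cidec by 1.15 and Lpl by 0.99. The summed level was 11.10 to 12.21 in CMS25 and 10.58 to 10.74 in CMS50. Without CMS50 replicate 2, 1 fell, and without CMS25 replicate 1, the array with high fat cell genes, 3 fell and 1 rose. On that array Adipoq read 7.44, against 6.65 and 6.15 on CMS25 replicates 2 and 3. Cfd read 8.01, 4.17 and 4.57 in CMS25 and 5.62, 6.06 and 5.13 in CMS50. Vehicle means were 9.43 for Cidec and 10.65 for Lpl beside 3.54 for Plin1, and how far Cidec and Lpl read fat cells was not tested. Of 4 liver genes tested Ambp rose, by 1.38 (SE 0.46, adjusted p = 0.0474), lost in 13 alternatives.

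Genes of dividing cells rose together. Of 35 tested mitosis genes 30 rose and 1 fell, with a median log2 difference of 1.20, and 25 to 30 rose when any 1 array was left out. The array held 51 genes of this list, and the dimmer ones were not tested. A member dim in CMS25, such as Mki67, could reach the intensity minimum through its CMS50 level. Mki67, the proliferation antigen Ki-67, read 4.57, 4.47 and 4.38 in CMS25 and 6.70, 7.79 and 6.76 in CMS50 (2.61, SE 0.33, adjusted p = 0.00200). For this gene CMS50 replicate 3 was no lower than replicate 1. Ect2, which places the cleavage furrow, read 5.15, 5.39 and 5.50 in CMS25 and 7.79, 8.14 and 7.38 in CMS50 (2.43, SE 0.22, adjusted p = 0.000765). Cdkn3, a phosphatase of cyclin-dependent kinases, rose by 2.18 (SE 0.33), Ccnb2 (cyclin B2) by 2.15 (SE 0.35) and Top2a (topoisomerase II) by 1.64 (SE 0.24). Melk, a kinase of dividing cells named after its value was seen, was the member that fell, from 7.73 to 8.23 in CMS25 to 6.37 to 7.11 in CMS50 (-1.28, SE 0.24, adjusted p = 0.00637). In DNA replication 19 of 30 rose and none fell (median 0.55), led by the helicase subunits Mcm6 (1.92, SE 0.23), Mcm4 (1.38) and Mcm2 (1.10), with 11 rises without CMS50 replicate 2. The immediate early genes, switched on within minutes of a stimulus, rose in 12 of 21 cases (5 without CMS50 replicate 1), with Atf3 up by 2.51 (SE 0.30), Myc by 2.44 (SE 0.34), Klf6 by 2.12 (SE 0.26) and Fos by 1.38 (SE 0.24).

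Because the mitosis genes moved together, their promoters were read for letters known from late cell cycle genes, the cell cycle homology region (TTTGAA or TTCGAA) and the CCAAT box (CCAAT), on either strand of the 250 bases before the gene's start in RefSeq on GRCr8. Promoters were found for 30 of the 35 genes. Of these, 16 (53.3%) held a cell cycle homology region, 26 (86.7%) a CCAAT box and 16 (53.3%) both, where in the whole table of 27457 promoters the shares were 17.3%, 34.3% and 6.22%, and among the 8673 promoters of tested genes 11.4%, 35.5% and 4.43%. Among 28 DNA replication promoters they were 17.9%, 53.6% and 14.3%. Letters alone are not a binding site. The promoters of the named mitosis genes Mki67 (chr1:199952594-199952843, minus strand), Ect2 (chr2:111966627-111966876, minus strand) and Ccnb2 (chr8:79981659-79981908, minus strand) are shown 5′ to 3′ on the gene's strand, the last base lying next to the start, with both kinds of match in capitals.
Mki67: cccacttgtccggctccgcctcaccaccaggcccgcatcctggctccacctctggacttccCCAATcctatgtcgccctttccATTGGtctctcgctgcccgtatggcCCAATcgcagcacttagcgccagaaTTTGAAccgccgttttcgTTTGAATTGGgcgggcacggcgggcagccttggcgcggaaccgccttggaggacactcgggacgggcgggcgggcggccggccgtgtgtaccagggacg
Ect2: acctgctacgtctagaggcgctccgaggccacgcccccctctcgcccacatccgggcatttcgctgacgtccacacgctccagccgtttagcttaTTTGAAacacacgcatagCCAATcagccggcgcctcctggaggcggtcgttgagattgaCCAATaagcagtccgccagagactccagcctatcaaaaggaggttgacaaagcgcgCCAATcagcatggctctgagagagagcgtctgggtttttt
Ccnb2: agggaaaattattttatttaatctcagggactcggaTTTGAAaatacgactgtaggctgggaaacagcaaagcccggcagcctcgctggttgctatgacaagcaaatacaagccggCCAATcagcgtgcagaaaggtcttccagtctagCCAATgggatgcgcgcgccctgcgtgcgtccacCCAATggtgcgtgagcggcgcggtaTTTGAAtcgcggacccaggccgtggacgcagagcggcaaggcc
Capitals mark 4 CCAAT boxes and 2 cell cycle homology regions for Mki67, 3 and 1 for Ect2, and 3 and 2 for Ccnb2, where overlapping matches run together.

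Cell death genes rose in part. Of 23 apoptosis genes 10 rose and 1 fell (median 0.27). Apaf1, which assembles the apoptosome, rose by 1.23 (SE 0.19), Casp8, the initiator caspase of death receptors, by 1.21 (SE 0.15), the receptor Tnfrsf1a by 1.19 (SE 0.13) and the survival gene Bcl2a1 by 1.21 (SE 0.20). The member that fell was Xiap, an inhibitor of caspases named after its value was seen (-0.56, adjusted p = 0.0157). In the list of necroptosis and inflammasome genes 6 of 14 rose and none fell (median 0.40). Tnfaip3, a brake on NF-kB, rose by 1.07 (SE 0.21), Gsdmd, the pore former of pyroptosis, by 0.95 (SE 0.21) and Casp4 by 0.85 (SE 0.09). Ripk3, the kinase that triggers necroptosis, read 5.58, 5.62 and 5.43 in CMS25 and 6.46, 7.04 and 5.64 in CMS50, where replicate 3 lay just above CMS25 (0.84, SE 0.28, adjusted p = 0.0487). That call was lost in 14 alternatives, leaving out any array but CMS50 replicate 3 among them, and without CMS50 replicate 2 the difference was 0.51. Mlkl, set to be reported whatever its value, is not listed in the annotation used here.

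Stress programmes differed in how much of each list moved. Of all genes, 20.8% rose and 9.43% fell, and the shares of heat shock, HIF and iron genes that rose were near the first. Of 18 targets of p53, 7 rose and 1 fell (2 rose without CMS50 replicate 2): Cdkn1a, the cell cycle inhibitor p21, read 6.33, 6.01 and 6.33 in CMS25 and 7.61, 7.44 and 7.22 in CMS50 (1.21, SE 0.13, adjusted p = 0.00123), and the stress hormone Gdf15 rose by 1.48 (SE 0.22). Rprm and Plk2 rose by 1.70 (SE 0.39) and 1.22 (SE 0.29), calls lost in 2 alternatives each, for Rprm those without CMS50 replicate 1 or 2. Mdm2, named after its value was seen as the best known target, had 0.13 (adjusted p = 0.422). The unfolded protein response moved little, with 4 of 32 that rose and none that fell (median 0.09, 2 rises after either other scaling or without CMS25 replicate 2 or 3 or CMS50 replicate 1 or 2), and Asns, which makes asparagine, was the largest at 1.13 (SE 0.17). Heat shock genes rose in 5 of 25 cases (2 without CMS50 replicate 1 or 2) and fell in 4, with the collagen chaperone Serpinh1 at 1.16 (SE 0.18) and Hspa2 at 1.07 (SE 0.24), and Dnajb6 at -0.75 (SE 0.10). Genes of the hypoxia factor HIF rose in 5 of 24 cases and fell in 6 (2 without CMS50 replicate 1), Angptl4 (a lipase inhibitor) by 1.62 (SE 0.29) up and Pfkfb4 (a regulator of glycolysis) by 1.24 (SE 0.18) down, and the sign of the list's median, 0.07, flipped after either other scaling. Iron and ferroptosis genes had 4 rises and 2 falls of 19 with a median of 0.02 that turned to -0.06 after centring; Cp (ceruloplasmin) rose by 1.82 (SE 0.26).

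Lysosome and ribosome assembly genes had more rises than falls, though most members of both lists were not called. Of 42 lysosome and autophagy genes 18 rose and 2 fell (median 0.33), and the largest were the cathepsins Ctsd (1.48, SE 0.21), Ctsz (1.44, SE 0.22) and Ctsk (1.07, SE 0.19), which macrophages also make. In ribosome assembly 14 of 40 rose (5 without CMS50 replicate 2, 16 without replicate 3), Pes1 by 0.78, Ncl (nucleolin) by 0.61 and Fbl (fibrillarin) by 0.60 among them, and Gtpbp4 was the single member that fell. Common reference genes were not constant: 5 of 12 rose and 1 fell, in every fit that left out an array 5 rose, and the median of 0.28 stayed above 0 after either other scaling. Rplp0 rose by 0.85 (SE 0.12), Rpl13a by 0.58 (SE 0.10), Polr2a by 0.53 (SE 0.10) and Gusb by 0.45 (SE 0.10), and Sdha fell by 0.45, a fall lost without any 1 of CMS25 replicates 1 and 2 and CMS50 replicates 1, 2 and 3, while Tbp had -0.09 (adjusted p = 0.541). Hormone genes of the kidney fell in 7 of 20 cases (2 without CMS50 replicate 2) and rose in 1: Ghr (growth hormone receptor) fell by 1.21 (SE 0.18) and Agt (angiotensinogen) by 0.95 (SE 0.27). Cholesterol synthesis had 3 rises and 3 falls of 20, but 1 or 2 rises whenever an array was left out, 1 rise after either other scaling, and no falls without CMS25 replicate 3, CMS50 replicate 1 or CMS50 replicate 2. Clock genes had 2 rises and 1 fall of 19, with Hlf, a clock output factor, at -0.91 (SE 0.20), and the time of kill is not given in the labels.

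**Figure D4:**
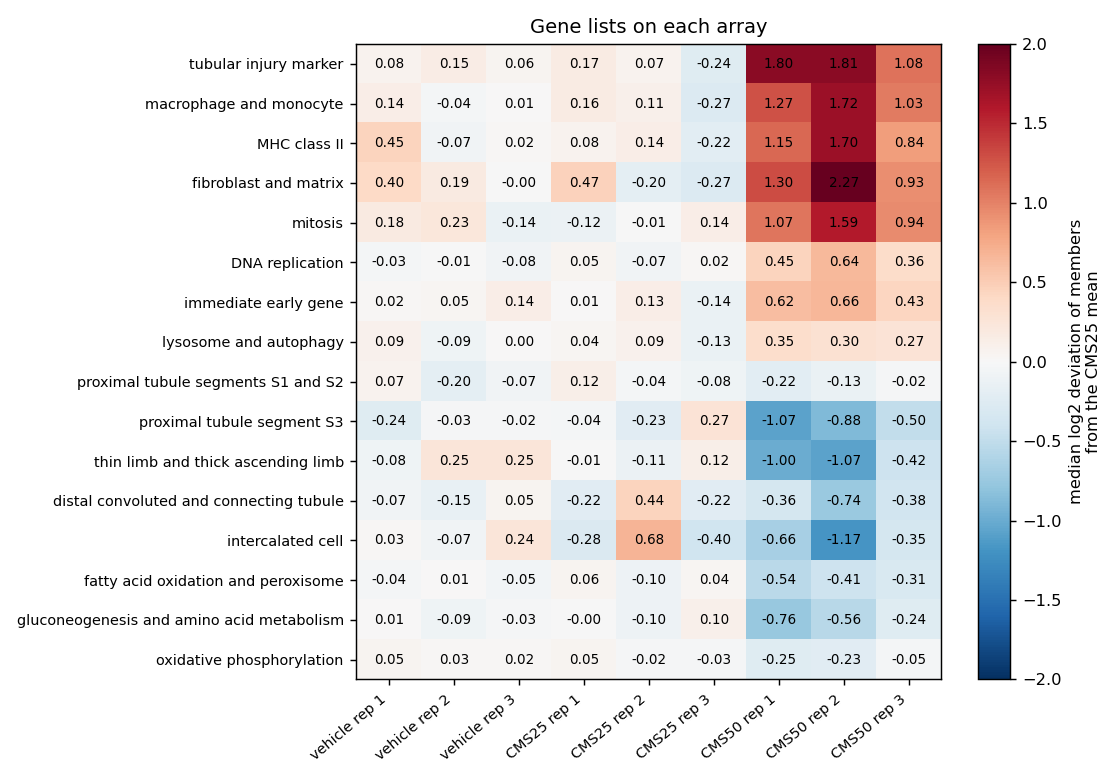
Median log2 deviation of the tested members of 16 gene lists (rows) from each gene's mean over all arrays, on each of the 9 arrays (columns). From each row the mean of its CMS25 medians was then subtracted. The result is printed in each cell and coloured from blue (lower) to red (higher). Injury markers lie at 1.80, 1.81 and 1.08 on CMS50 replicates 1 to 3 and between -0.24 and 0.17 on the other arrays, and CMS50 replicate 3 has the smallest deviation of the CMS50 arrays in the rows for injury, matrix, S3 and oxidative phosphorylation genes.

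The step from vehicle to CMS25 was measured on the same scale, and since both steps share the CMS25 arrays their values are given side by side only. In CMS25 against vehicle kidneys limma called 0 of 10337 genes (0%), 604 had an unadjusted p under 0.05, and every alternative fit also called 0. Havcr1 had a log2 difference of -0.68 in the first step and 7.00 in the second, Lcn2 0.07 and 4.55, Gpnmb -0.11 and 3.61, and Gpx2 0.00 and 3.52. The medians of the injury, macrophage, matrix and mitosis lists were -0.03, -0.02, -0.19 and -0.11 in the first step. A contrast of the steps themselves (second minus first) called 46 genes (0.445%), 41 with the second step higher (0.397%) and 5 with it lower (0.0484%). The 5 with the highest contrast were Havcr1 (7.68, SE 0.80, adjusted p = 0.0149), Lcn2 (4.48), Gpnmb (3.72), Adamts1 (3.59) and Gpx2 (3.52), and the 5 with a lower second step were Klk1c4 (-5.42), Gtpbp4 (-4.21), Azgp1 (-2.65), Zfp136 (-1.77) and Gstt2 (-1.18).

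Some of these genes read higher in CMS25 than in vehicle kidneys, which their choice by the contrast of steps favours. Both steps hold the CMS25 mean, with opposite signs, so a lower second step is found more readily where CMS25 reads high. Azgp1, a secreted lipid-mobilising protein, read 7.76, 7.94 and 7.69 in vehicle, 8.20, 8.15 and 8.54 in CMS25 and 6.46, 5.68 and 6.27 in CMS50, so that CMS25 lay above both other groups on every array. Zfp136, a zinc finger gene, read 4.91, 5.37 and 5.62 in vehicle, had a mean of 6.19 ± 0.161 (SD, n = 3) in CMS25, and read 5.38, 5.17 and 5.34 in CMS50. Gstt2, a glutathione transferase, held at 9.21 to 9.52 in vehicle and 9.34 to 9.44 in CMS25 and read 8.24, 8.21 and 8.20 in CMS50. The first step for Azgp1 and Zfp136 was 0.50 and 0.88 on the log2 scale and was not called. The number called by this contrast rested on single arrays: 0 without vehicle replicate 2 or CMS25 replicate 3, 1 without CMS25 replicate 2, 2 without vehicle replicate 1, 9 without vehicle replicate 3 or CMS50 replicate 1, 15 without CMS50 replicate 2, 35 without CMS25 replicate 1 and 1090 without CMS50 replicate 3.

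**Figure D5:**
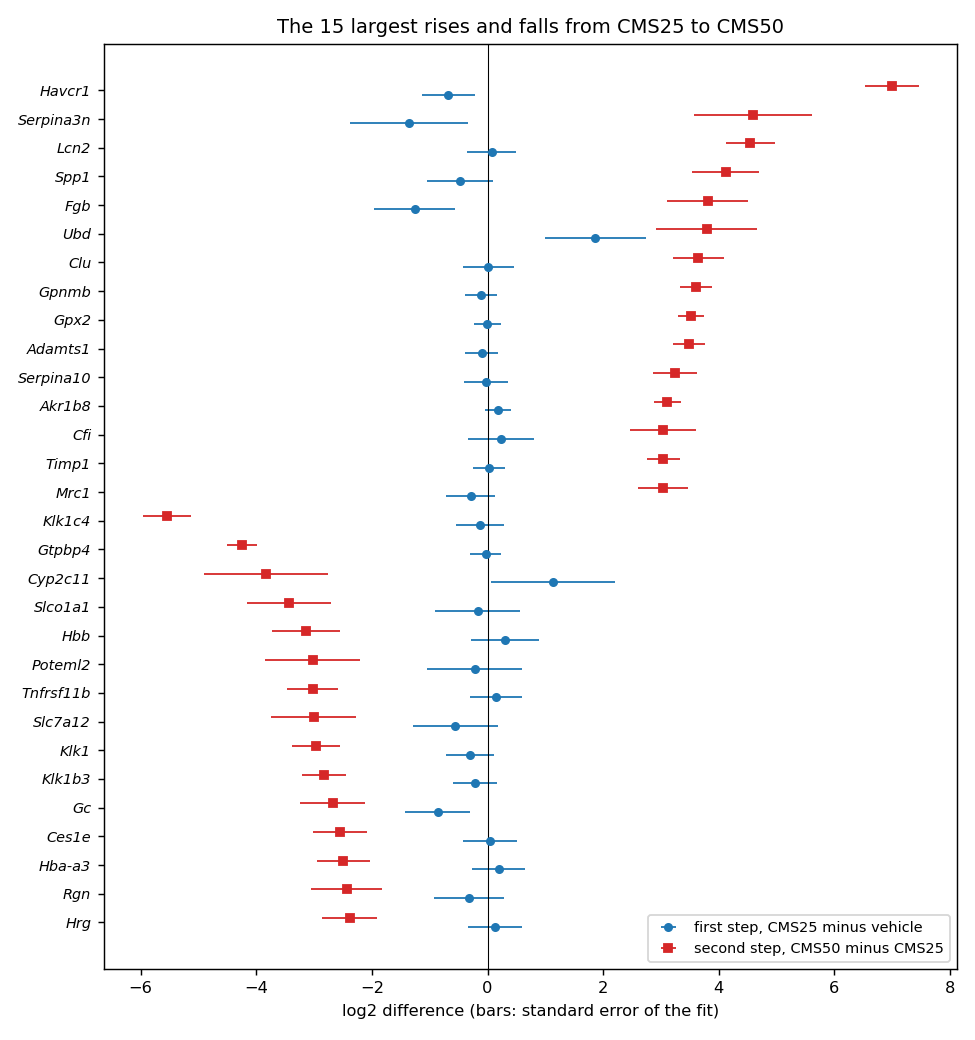
Log2 difference (x axis) with the standard error of the fit for the 15 largest rises and 15 largest falls from CMS25 to CMS50 (y axis); red squares are CMS50 minus CMS25 and blue circles CMS25 minus vehicle. Red squares run from 7.00 for Havcr1 to -5.55 for Klk1c4, none of the blue values was called, and Ubd (1.86) and Cyp2c11 (1.14) have the highest blue values.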

How the data were processed

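The labels' protocols describe total RNA of the whole right kidney, hybridised after biotin labelling. Per the submitters' processing notes the authors summarised probe sets by RMA (Affymetrix Expression Console), and no version is stated. The deposited log2 values were used as given. RMA makes the distributions of arrays alike, so a shift of all genes cannot be seen, and changes of dim genes are compressed. Leaving out control probe sets, 20826 of 31042 had 1 gene symbol in the platform annotation (20758 with an ID in a current rat gene table), 436 had several and 9780 were not listed. The probe set with the highest mean stood for each gene. Of 1628 further probe sets of called genes, 1127 changed in the same direction, and 729 of the 882 with a mean of at least 5.

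All 9 arrays were fitted in 3 groups with limma 3.58.1 in R 4.3.3 (lmFit, eBayes), which share 1 spread per gene, with Benjamini-Hochberg adjustment over the 10337 genes. The labels give no batch. The fit was checked on simulated data. Named are, of called genes whose CMS25 and CMS50 arrays do not overlap, the 15 with the largest rise and the 15 with the largest fall, up to 4 called members of each list, 5 in each direction for the contrast of steps, and a panel, plus those marked as named after their values were seen. The members, lists and panel were chosen with earlier results of these data known. Promoters were matched by symbol. Alternatives changed scaling, intensity minimum, probe set rule, variance model, array weights and arrays fitted, and used the replicate number as a block. Figures were drawn with matplotlib 3.10.9 in Python 3.11.15.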

Additional observations from a re-analysis of the deposited data

How the results depend on the processing

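Of the 184 named genes that were called, none reversed in any alternative. Up to 51 of them (without CMS50 replicate 2) lost the call in a setting. With an intensity minimum of 6 only 156 of the 184 were tested, and 0 of these lost it. Leaving out each array gave 1569 to 3518 called genes, 387 to 810 with a 2-fold change, 0 to 1090 for the contrast of steps and 0 for CMS25 against vehicle. The contrast of steps called 78 genes with a trended and robust variance and 212 with array weights, and both raised it above 46. With only the CMS25 and CMS50 arrays 2165 genes were called. Leave-one-out values of the beta-actin reading were 0.3411 to 0.4599 and of the GAPDH reading 0.0164 to 0.2255, and the 3′ against middle readings were 0.2358 and 0.0632. Averaging a gene's probe sets took Nfkbiz to 1.03, Apaf1 to 0.51, Fos to 0.59, Cdkn1a to 0.67, Gldc to -0.91, Serpinh1 to 0.67, Mcam to 0.40, Pfkfb4 to -0.78 and Gstt2 to -0.75, with calls kept, and ended the calls for RT1-Bb (1.11), Ndufv3 (-0.22), Pdgfrb (0.50), Amn (0.26), Pklr (-0.64), Ripk3 (0.84) and Ambp (1.38) among the genes printed. Causes were not tested.

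Same-numbered samples correlated between -0.183 and 0.263 in their deviations from the group means, and differently numbered ones between -0.229 and 0.225. With 3 arrays per group these values cannot decide whether the replicate numbers pair the rats, and the main fit used no pairing. With the replicate block 2857 genes were called, 569 with a 2-fold change, 56 for the contrast of steps and 0 for CMS25 against vehicle.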

Other observations

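Gene families were grouped by symbol after the data were seen, and their counts are descriptions beside 20.8% of all genes that rose and 9.43% that fell. Cytosolic ribosomal proteins rose nearly throughout, 28 of 30 of the large subunit (median log2 difference 0.54) and 11 of 12 of the small subunit (0.65), and after centring each array on its median 27 and 10 still rose. Rpl12 read 11.88, 11.50 and 11.61 in CMS25 and 12.72, 12.69 and 12.23 in CMS50 (0.89, SE 0.15, adjusted p = 0.00405), and Rps28 rose by 0.96 (SE 0.13). Of 73 mitochondrial ribosomal proteins, which build the separate ribosome of that organelle, 2 rose and 10 fell (median -0.07).

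Annexins rose and organic ion transporters fell. Of 8 annexins, which bind membranes with calcium, 5 rose and none fell (median 1.30): Anxa5 read 10.22, 9.43 and 9.73 in CMS25 and 12.00, 11.99 and 11.12 in CMS50 (1.91, SE 0.28), and Anxa2 rose by 1.90 (SE 0.23). S100a10, the partner protein of Anxa2, rose by 1.75 (SE 0.19), one of 6 S100 genes of 9 that rose, while S100g (-1.88) and S100a1 (-0.69) fell. Of 15 organic ion transporters of the Slc22 family 9 fell and none rose (median -0.59), with the urate transporter Slc22a12 at -1.19 (SE 0.21) and Slc22a25 at -1.65 (SE 0.26). Slc34a2, a phosphate transporter known from lung and gut, read 7.49, 6.95 and 7.81 in CMS25 and 10.62, 10.81 and 9.80 in CMS50 (2.99, SE 0.31, adjusted p = 0.00123), while Slc34a1, its kidney relative, did not pass. Of 16 glutathione transferases 8 fell and 2 rose (median -0.59). These directions held after cyclic loess and after centring.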
